A study of Homo sapiens with 8 samples.

Results

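The genes CDH1, CDH2, CDH3, VIM, FN1, ZEB1, ZEB2, SNAI1, SNAI2 and TWIST1, which are read as marks of epithelial or mesenchymal state, were followed through 2 mammary epithelial lines. They comprise classical cadherins, the filament protein vimentin, the matrix protein fibronectin and 5 transcriptional repressors. They were taken by symbol, and each of the 10 had a row of its own among 42241 named genes in the table of the NOTCH1-labelled line and 42234 in that of MCF10A. Under ginkgolic acid (GA), VIM, FN1 and TWIST1 were more than 2-fold above their DMSO level in both lines. CDH1 and CDH3 were more than 2-fold below it in MCF10A and close to it in the NOTCH1-labelled line. ZEB1 was 2.18-fold higher in the NOTCH1-labelled line and 6.36-fold lower in MCF10A, where its value under GA was only 0.780 FPKM.

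The study held 8 samples in 4 groups of 2. MCF10A is a non-tumorigenic human mammary epithelial line, grown here with horse serum, insulin, cholera toxin, epidermal growth factor and hydrocortisone, and the NOTCH1-labelled line is MCF10A with the NOTCH1 intracellular domain overexpressed. The groups were NOTCH1-labelled cells under GA at 30 µM for 3 days, NOTCH1-labelled cells under DMSO for 3 days, MCF10A cells under GA at that dose and time, and MCF10A cells under DMSO for 3 days. GA inhibits the conjugation of SUMO, a small ubiquitin-like modifier, to proteins, and DMSO is its solvent. The promoter that drives the transgene, whether the line is a single clone and whether paired samples came from separate cultures are not stated in the labels.

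Epithelial cells are joined by classical cadherins, whose outer domains bind those of the next cell and whose tails hold actin through catenins. In an epithelial-mesenchymal transition E-cadherin (CDH1) is lost, vimentin and fibronectin are gained, and N-cadherin (CDH2) often is too. Repressors of the SNAI, ZEB and TWIST families drive this change, and SNAI and ZEB proteins do so by binding E-boxes in promoters such as that of CDH1. Basal mammary cells normally carry P-cadherin (CDH3), SNAI2 and some vimentin beside E-cadherin.

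Each table lists 1 FPKM value (fragments per kilobase of transcript, scaled to library size) per gene and group. Without values per sample there is no replicate error and no test, so "higher" and "lower" compare listed values only. A gene was taken as measured where either group of its table reached 1 FPKM, and a response is the log2 ratio of GA over DMSO within 1 table. NOTCH1 itself was at 12.4 FPKM under GA and 5.03 under DMSO in the NOTCH1-labelled line, and at 6.18 FPKM under GA and 11.4 under DMSO in MCF10A. The DMSO levels thus go against the label, across tables that were normalized separately. Low FPKM values moved in whole steps, which put the fragments of the GA group at about 0.591 times those of the DMSO group in the NOTCH1-labelled line and 1.61 times in MCF10A; the absolute depth is unknown. Over genes that reached 1 FPKM in both groups, the median response was 0.14 in the NOTCH1-labelled line and −0.10 in MCF10A. In bulk RNA, fewer cells of a type and less RNA per cell cannot be told apart.

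Markers of cells that neither line should hold give a sense of what a low FPKM means. Of 10 endothelial and leukocyte markers 9 had a row, and none of these was at 0 in any group. Their summed level was 14.3 FPKM under GA and 14.5 under DMSO in the NOTCH1-labelled line, and 17.9 FPKM under GA and 27.8 under DMSO in MCF10A. The highest single marker reached 6.15 FPKM under GA and 6.66 under DMSO in the NOTCH1-labelled line and 5.41 FPKM under GA and 13.6 under DMSO in MCF10A. This was PTPRC under GA in the NOTCH1-labelled line and CD14 in the other groups. The median marker was far lower, at 0.315 FPKM under GA and 0.902 under DMSO in the NOTCH1-labelled line. In MCF10A it was at 1.30 FPKM under GA and 0.589 under DMSO. Below the highest marker of their own group lay all values of CDH2 and SNAI1, those of ZEB1 and SNAI2 except under GA in the NOTCH1-labelled line, those of ZEB2 except under DMSO in the NOTCH1-labelled line, and that of FN1 under DMSO in MCF10A. The 6 fibroblast markers with a row, none at 0, summed to 43.1 FPKM under GA and 73.1 under DMSO in the NOTCH1-labelled line and 23.1 FPKM under GA and 30.7 under DMSO in MCF10A, with DCN the highest in each group. The part of other cells in the results was not tested.

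Promoter windows of 300 bases, from 250 before to 50 after a transcript start, were at hand from RefSeq (GRCh38.p14) for VIM, FN1, ZEB1, ZEB2 and CDH2. Those of VIM and FN1 are shown because both genes were higher under GA in both lines, and the ZEB1 window with the most E-boxes because ZEB1 went opposite ways. They are written 5′ to 3′ in lower case. Capitals mark matches on either strand to the E-box CACCTG bound by ZEB and SNAI proteins, the cAMP response element TGACGTCA bound by CREB and ATF proteins, or the AP-1 site TGACTCA.
FN1, minus strand, chr2:215436019-215436318: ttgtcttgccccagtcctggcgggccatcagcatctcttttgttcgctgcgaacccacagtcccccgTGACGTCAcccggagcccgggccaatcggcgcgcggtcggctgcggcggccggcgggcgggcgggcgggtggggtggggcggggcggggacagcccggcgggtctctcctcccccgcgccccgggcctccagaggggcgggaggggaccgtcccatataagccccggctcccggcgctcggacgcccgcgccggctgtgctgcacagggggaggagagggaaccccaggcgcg
VIM, plus strand, chr10:17227991-17228290: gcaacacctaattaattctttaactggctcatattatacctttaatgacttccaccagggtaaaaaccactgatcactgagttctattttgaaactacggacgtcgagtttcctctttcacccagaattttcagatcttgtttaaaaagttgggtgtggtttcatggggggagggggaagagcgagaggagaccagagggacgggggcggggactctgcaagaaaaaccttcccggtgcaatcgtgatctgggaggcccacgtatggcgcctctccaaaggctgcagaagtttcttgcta
ZEB1, plus strand, chr10:31318966-31319265: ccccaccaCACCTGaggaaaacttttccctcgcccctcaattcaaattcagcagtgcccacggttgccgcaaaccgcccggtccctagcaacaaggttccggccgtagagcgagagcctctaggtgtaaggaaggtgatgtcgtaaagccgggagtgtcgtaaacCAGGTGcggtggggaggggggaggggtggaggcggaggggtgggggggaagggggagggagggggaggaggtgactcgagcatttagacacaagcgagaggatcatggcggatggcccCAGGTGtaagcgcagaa
The FN1 window holds 1 cAMP response element, which begins 183 bases before the start, and 1.85% of 35116 promoter windows hold this motif. The VIM window holds none of the 3 motifs. The ZEB1 window holds 3 E-boxes, and 2 of the 7 ZEB1 windows hold at least 1, beside 20.6% of all windows. The AP-1 site is in 4.95% of all windows and in none of the members' 12. No binding was measured, so a match describes letters alone.

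As a set, 9 of the 10 genes were measured in each line. In the NOTCH1-labelled line, 4 were higher under GA by 2-fold or more, VIM, FN1, TWIST1 and ZEB1, beside 18.9% of 19661 genes with a ratio. None was lower by as much, where again 18.9% of all genes were. In MCF10A, 3 were higher, VIM, FN1 and TWIST1, beside 24.5% of 17814 genes, and 3 were lower, CDH1, CDH3 and ZEB1, beside 15.2%. The members' median response was 0.92 in the NOTCH1-labelled line and −0.46 in MCF10A, where all genes with a ratio had 0.06 and 0.07. Genes that reached 1 FPKM in both groups had medians of 0.14 in the NOTCH1-labelled line and −0.10 in MCF10A. VIM, FN1 and TWIST1 belong to the 816 genes, 5.21% of the 15654 with both ratios, that were higher by 2-fold or more in both lines. ZEB1 belongs to the 1.19% that were higher by that size in the NOTCH1-labelled line and lower by it in MCF10A.

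**Figure D1:**
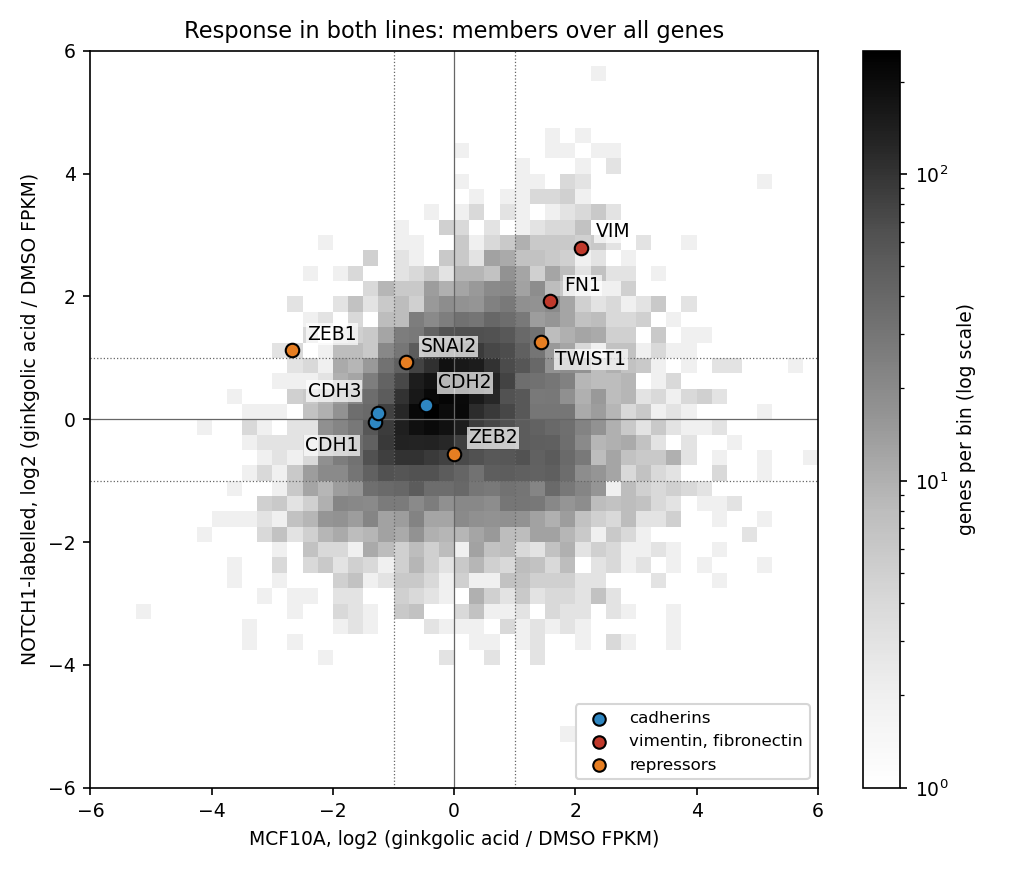
Log2 ratio of GA over DMSO in MCF10A (horizontal) and in the NOTCH1-labelled line (vertical) for the 9 measured members, over the number of genes per bin in grey; dotted lines mark 2-fold, and 15605 of 15654 genes lie inside the axes. VIM, FN1 and TWIST1 lie at the upper right, CDH1 and CDH3 together at the left near 0 on the vertical axis, and ZEB1 alone at the upper left.

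The response was higher in the NOTCH1-labelled line than in MCF10A by 1 or more on the log2 scale for 4 of 9 members, beside 21.5% of all genes, and lower by as much for 0, beside 22.7%. These 4 were ZEB1, with a difference of 3.80, SNAI2 with 1.72, CDH3 with 1.36 and CDH1 with 1.26. The difference was 0.70 for CDH2 and for VIM, 0.35 for FN1, −0.17 for TWIST1 and −0.55 for ZEB2. The median was 0.70, where all genes had 0.21. With the median of genes above 10 FPKM removed from each table, CDH1 and CDH3 came to 0.86 and 0.96. None of these differences could be tested.

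Of the cadherins, the epithelial and the basal member had the same pattern. CDH1, which encodes E-cadherin (chromosome 16, 68771128 to 68869487 on hg19 in the MCF10A table, plus strand), was at 63.9 FPKM under GA and 65.8 under DMSO in the NOTCH1-labelled line, and at 39.2 FPKM under GA and 96.6 under DMSO in MCF10A. Its response was −0.042 in the NOTCH1-labelled line and −1.30 in MCF10A, where 10.2% of all genes were at least as low. CDH3, which encodes P-cadherin and lies next to CDH1 on the same strand (68670092 to 68756519), was at 176 FPKM under GA and 164 under DMSO in the NOTCH1-labelled line, and at 103 FPKM under GA and 247 under DMSO in MCF10A. Its response was 0.10 in the NOTCH1-labelled line, which turns to −0.040 once the table's median is removed, and −1.26 in MCF10A. Under GA both genes were higher in the NOTCH1-labelled line than in MCF10A, and under DMSO both were lower, across tables that were normalized separately. Both genes have annotated genes on the opposite strand, and RP11-354M1.2, which shares the CDH1 locus, was at 7.22 FPKM under GA and 5.95 under DMSO in the NOTCH1-labelled line, and at 1.77 FPKM under GA and 4.07 under DMSO in MCF10A.

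**Figure D2:**
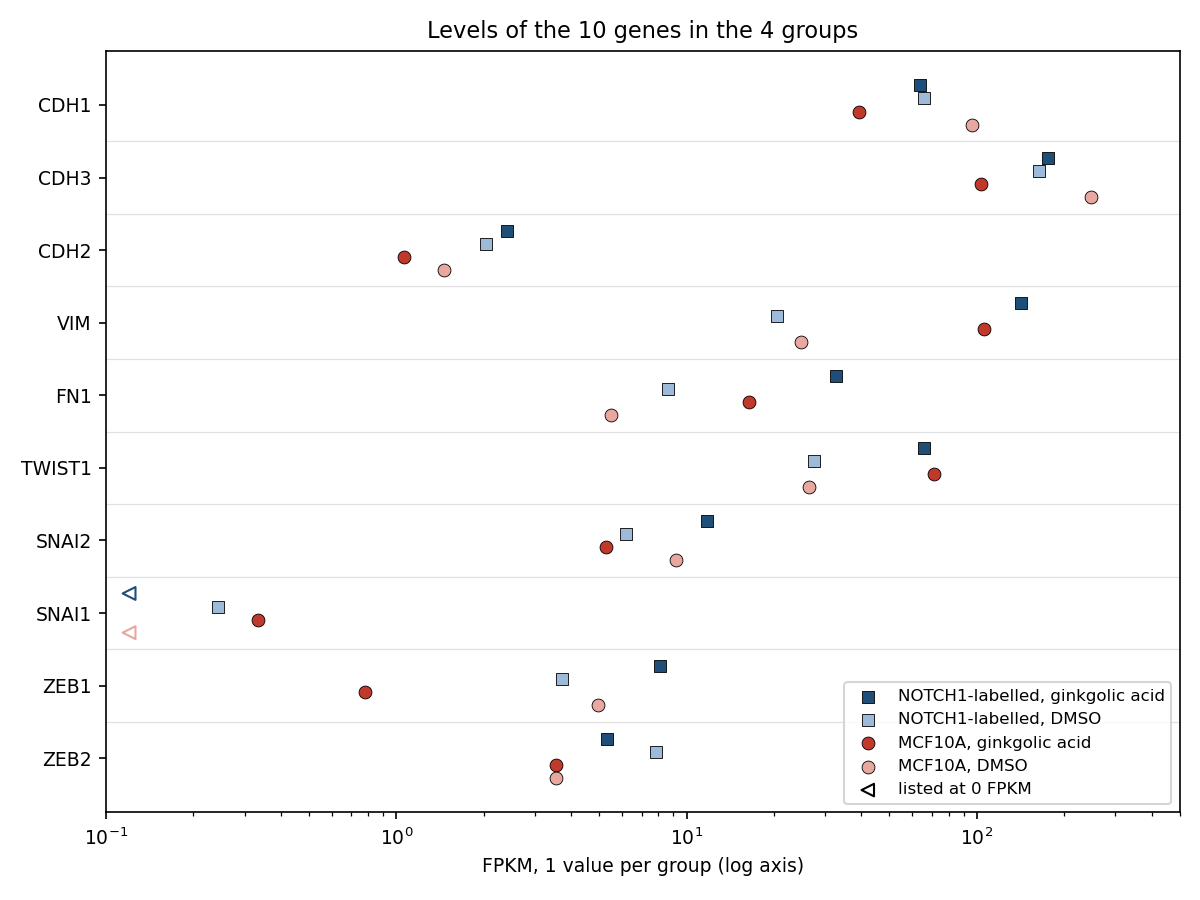
FPKM of the 10 genes (rows) on a log axis, with 1 point per group, squares for the NOTCH1-labelled line, circles for MCF10A and dark fill for GA; open triangles at the left edge mark values listed at 0. VIM, FN1 and TWIST1 lie further right under GA in both lines, and CDH1 and CDH3 further left under GA in MCF10A, CDH1 at 39.2 FPKM and CDH3 at 103 FPKM.

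CDH2, which encodes N-cadherin (chromosome 18, 25530930 to 25757410, minus strand), was at 2.40 FPKM under GA and 2.04 under DMSO in the NOTCH1-labelled line, and at 1.06 FPKM under GA and 1.46 under DMSO in MCF10A. All 4 values are low and within 2-fold of each other inside a line, with responses of 0.23 in the NOTCH1-labelled line and −0.46 in MCF10A. The lower CDH1 of MCF10A under GA was not accompanied by a higher CDH2.

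Ratios of 2 genes within a group do not depend on a table's scaling and can be set side by side across lines. The CDH3 to CDH1 ratio kept to a narrow band, at 2.75 under GA and 2.49 under DMSO in the NOTCH1-labelled line, and at 2.63 under GA and 2.55 under DMSO in MCF10A. The VIM to CDH1 ratio was 2.23 under GA and 0.312 under DMSO in the NOTCH1-labelled line, and 2.71 under GA and 0.257 under DMSO in MCF10A. CDH1 was thus listed above VIM under DMSO, and VIM above CDH1 under GA, in both lines, a shift of 7.13-fold in the NOTCH1-labelled line and 10.5-fold in MCF10A. The FN1 to CDH1 ratio was 0.512 under GA and 0.131 under DMSO in the NOTCH1-labelled line, and 0.417 under GA and 0.0569 under DMSO in MCF10A.

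**Figure D3:**
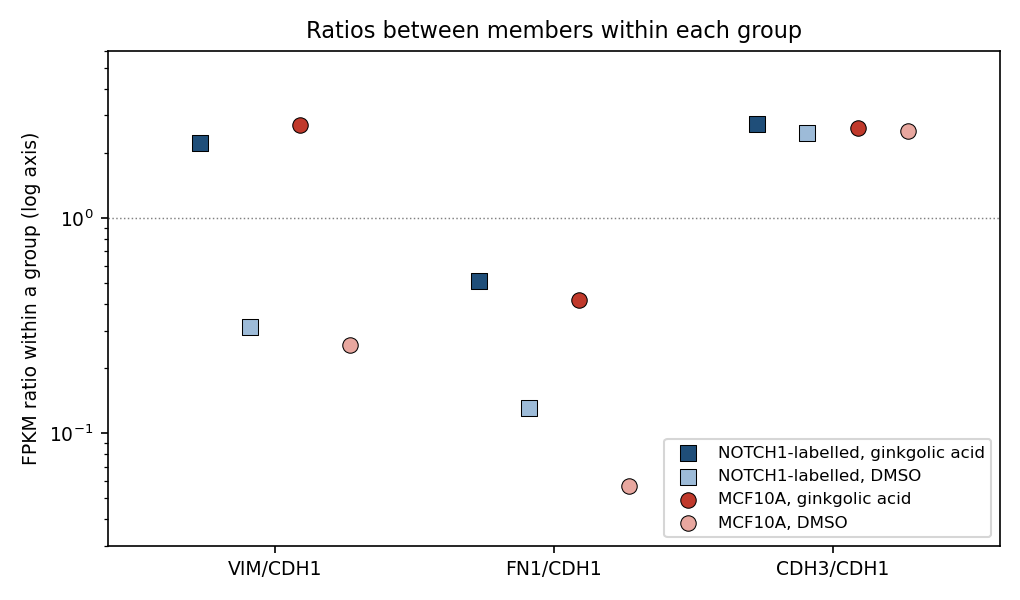
FPKM of VIM, FN1 and CDH3 divided by that of CDH1 in the same group, on a log axis, with 1 point for each of the 4 groups. The VIM and FN1 ratios are higher under GA in both lines, while the CDH3 ratio stays between 2.49 and 2.75.

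Of 14 genes for adhesion partners of the cadherins, 8 had a row of their own and were measured. In the NOTCH1-labelled line 1 of these was higher by 2-fold or more, beside 18.9% of all genes, and 0 lower, beside 18.9%, with a median response of 0.47. In MCF10A 2 were higher, beside 24.5%, and 0 lower, beside 15.2%, with a median of 0.34. With the table's median removed, 1 was lower in the NOTCH1-labelled line, CTNNA3, an alpha-catenin gene, at 1.04 FPKM under GA and 1.93 under DMSO. In MCF10A CTNNA3 was among the higher genes, at 1.55 FPKM under GA and 0.152 under DMSO. CTNNA2, an alpha-catenin gene typical of neurons, was at 2.63 FPKM under GA and 3.08 under DMSO in the NOTCH1-labelled line, and at 4.95 FPKM under GA and 1.30 under DMSO in MCF10A. CTNNA3 and the epithelial alpha- and beta-catenin genes CTNNA1 and CTNNB1 were chosen after their values were seen. CTNNA1 was at 833 FPKM under GA and 509 under DMSO in the NOTCH1-labelled line, and at 588 FPKM under GA and 664 under DMSO in MCF10A. CTNNB1 was at 95.2 FPKM under GA and 66.1 under DMSO in the NOTCH1-labelled line, and at 56.0 FPKM under GA and 48.4 under DMSO in MCF10A. Plakoglobin (JUP) shares its row with the keratin gene KRT17, and the row was at 1854 FPKM under GA and 1362 under DMSO in the NOTCH1-labelled line, and at 1052 FPKM under GA and 4504 under DMSO in MCF10A, more than 2-fold lower under GA in MCF10A. The row of p120-catenin (CTNND1) and 4 other symbols was at 152 FPKM under GA and 124 under DMSO in the NOTCH1-labelled line, and at 129 FPKM under GA and 197 under DMSO in MCF10A. The genes of such rows cannot be told apart.

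Of 18 other cadherins 11 were measured in each line. In the NOTCH1-labelled line 2 were higher and 1 lower, beside 18.9% of all genes each way, with a median response of −0.60. In MCF10A 4 were higher, beside 24.5%, and 1 lower, beside 15.2%, with a median of 0.60. With a minimum of 5 FPKM each of these counts was 0.

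VIM had the largest positive response of the members in each line. It encodes the intermediate filament protein of mesenchymal cells (chromosome 10, 17270258 to 17279592, plus strand) and was at 142 FPKM under GA and 20.5 under DMSO in the NOTCH1-labelled line, and at 106 FPKM under GA and 24.8 under DMSO in MCF10A. Both GA values lie far above both DMSO values, across tables that were normalized separately. Within a line GA was above DMSO by 6.92-fold in the NOTCH1-labelled line and 4.27-fold in MCF10A. Of all genes, 2.11% in the NOTCH1-labelled line and 8.62% in MCF10A had a response at least as high. RP11-124N14.3, listed in the same locus, was at 104 FPKM under GA and 13.9 under DMSO in the NOTCH1-labelled line, and at 77.6 FPKM under GA and 13.0 under DMSO in MCF10A. The annotation has VIM-AS1 on the opposite strand, and since the use of strand in counting is not stated, reads of VIM and of an antisense transcript cannot be told apart.

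FN1, a matrix glycoprotein bound by integrins (chromosome 2, 216225163 to 216300895, minus strand), was at 32.7 FPKM under GA and 8.65 under DMSO in the NOTCH1-labelled line, and at 16.4 FPKM under GA and 5.50 under DMSO in MCF10A. Both GA values lie above both DMSO values, across tables that were normalized separately. The responses were 1.92 in the NOTCH1-labelled line and 1.57 in MCF10A, and 6.13% and 15.0% of all genes in those lines were at least as high. The FN1 to VIM ratio was 0.230 under GA and 0.421 under DMSO in the NOTCH1-labelled line, and 0.154 under GA and 0.221 under DMSO in MCF10A, lower under GA in both.

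Other mesenchymal and matrix genes had no share past 2-fold far above that of all genes. Of 30 measured in the NOTCH1-labelled line, 6 were higher and 4 lower, beside 18.9% of all genes each way, with a median response of 0.15. Of 27 measured in MCF10A, 8 were higher, beside 24.5%, and 2 lower, beside 15.2%, with a median of −0.013. With the table's median removed, this median was 0.092 and the count of lower genes in MCF10A 0. SPARC, a collagen-binding matrix protein, was at 27.5 FPKM under GA and 2.41 under DMSO in the NOTCH1-labelled line, and at 4.24 FPKM under GA and 9.05 under DMSO in MCF10A. Its response in MCF10A was −1.10, or −0.99 once the table's median is removed. TAGLN, an actin-binding protein of smooth muscle and fibroblasts, was at 17.7 FPKM under GA and 2.58 under DMSO in the NOTCH1-labelled line, and at 12.9 FPKM under GA and 5.03 under DMSO in MCF10A, higher under GA in both. ITGA5, the alpha chain of a fibronectin receptor, was at 37.5 FPKM under GA and 9.06 under DMSO in the NOTCH1-labelled line, and at 9.79 FPKM under GA and 7.15 under DMSO in MCF10A. ACTA2, smooth muscle actin, was at 52.1 FPKM under GA and 58.7 under DMSO in the NOTCH1-labelled line, and at 73.0 FPKM under GA and 31.7 under DMSO in MCF10A. Under a 5 FPKM minimum there were 5 higher and 0 lower in the NOTCH1-labelled line and 2 higher and 2 lower in MCF10A.

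The 5 repressors did not move together. TWIST1, a basic helix-loop-helix factor, had the highest FPKM of them in every group, at 65.7 FPKM under GA and 27.5 under DMSO in the NOTCH1-labelled line, and at 71.2 FPKM under GA and 26.5 under DMSO in MCF10A. The lines had nearly the same listed level under each treatment, across tables that were normalized separately. The responses were 1.26 in the NOTCH1-labelled line and 1.43 in MCF10A, and 14.0% and 17.0% of all genes in those lines were at least as high. The row spans chromosome 7 from 19060614 to 19157295 (minus strand) and shares this locus with AC003986.6, which was at 1.07 FPKM or less in every group.

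ZEB1, a zinc finger homeobox repressor of CDH1 (chromosome 10, 31596658 to 31818742, plus strand), was at 8.12 FPKM under GA and 3.72 under DMSO in the NOTCH1-labelled line, and at 0.780 FPKM under GA and 4.96 under DMSO in MCF10A. The DMSO values are close, and the GA values lie on either side of them, across tables that were normalized separately. The responses were 1.13 in the NOTCH1-labelled line, or 0.99 once the table's median is removed, and −2.67 in MCF10A, where 1.51% of all genes were at least as low. ZEB1-AS1 in the same locus was at 5.24 FPKM under GA and 4.66 under DMSO in the NOTCH1-labelled line, and at 2.81 FPKM under GA and 3.51 under DMSO in MCF10A. In MCF10A, lower ZEB1 stood beside lower CDH1.

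ZEB2, the paralog of ZEB1 (chromosome 2, 145145531 to 145282147 in the NOTCH1-labelled table, minus strand), was at 5.32 FPKM under GA and 7.84 under DMSO in the NOTCH1-labelled line, and at 3.55 FPKM under GA and 3.56 under DMSO in MCF10A. Its response was −0.56 in the NOTCH1-labelled line and −0.0043 in MCF10A, within 2-fold in both. The locus holds 3 annotated small RNAs and shares its place with AC009951.2, which was at 6.12 FPKM under GA and 15.6 under DMSO in the NOTCH1-labelled line, and at 11.6 FPKM under GA and 6.06 under DMSO in MCF10A. The ZEB1 to ZEB2 ratio was 1.53 under GA and 0.474 under DMSO in the NOTCH1-labelled line, and 0.220 under GA and 1.39 under DMSO in MCF10A, so the gene with the higher FPKM changed with treatment, in opposite directions.

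SNAI2, the zinc finger repressor typical of basal mammary cells (chromosome 8, 49830249 to 49834299, minus strand), was at 11.7 FPKM under GA and 6.18 under DMSO in the NOTCH1-labelled line, and at 5.27 FPKM under GA and 9.18 under DMSO in MCF10A. Its responses of 0.92 in the NOTCH1-labelled line and −0.80 in MCF10A stay within 2-fold and differ in sign, as those of ZEB1 do. SNAI1, its paralog (chromosome 20, 48599536 to 48605423, plus strand), did not reach 1 FPKM in any group. It was listed at 0 under GA and at 0.243 FPKM under DMSO in the NOTCH1-labelled line, and at 0.335 FPKM under GA and at 0 under DMSO in MCF10A. No ratio is given, because SNAI1 was not measured by the 1 FPKM rule and had an entry of 0 in each line. An entry of 0 may stand for an estimate that failed.

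Corepressors and chromatin enzymes that these factors recruit were past 2-fold about as often as all genes or less often. In the NOTCH1-labelled line 2 of 14 measured were higher and 0 lower, beside 18.9% of all genes each way, and in MCF10A 0 of 13 were higher, beside 24.5%, and 2 lower, beside 15.2%. The median response was 0.41 in the NOTCH1-labelled line and 0.0095 in MCF10A. EZH2, a histone methyltransferase of Polycomb, was at 30.0 FPKM under GA and 12.6 under DMSO in the NOTCH1-labelled line, and at 28.7 FPKM under GA and 17.6 under DMSO in MCF10A. DNMT1, the maintenance DNA methyltransferase, was at 9.02 FPKM under GA and 2.66 under DMSO in the NOTCH1-labelled line, and at 4.99 FPKM under GA and 4.96 under DMSO in MCF10A. CTBP2, a corepressor bound by ZEB proteins, was at 23.0 FPKM under GA and 32.5 under DMSO in the NOTCH1-labelled line, and at 16.1 FPKM under GA and 40.7 under DMSO in MCF10A. Its paralog CTBP1 was at 37.1 FPKM under GA and 33.1 under DMSO in the NOTCH1-labelled line, and at 24.3 FPKM under GA and 48.8 under DMSO in MCF10A, and its response in MCF10A falls short of 2-fold, at −0.90, once the table's median is removed, which leaves 1 lower gene.

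Among 18 measured genes whose products act on the stability or modification of the SNAI proteins and their relatives, 5 were higher and 1 lower in the NOTCH1-labelled line, beside 18.9% of all genes each way. In MCF10A 1 was higher, beside 24.5%, and 2 lower, beside 15.2%, and the medians were 0.53 in the NOTCH1-labelled line and 0.038 in MCF10A. With the median of genes above 10 FPKM removed, 3 were higher and 2 lower in the NOTCH1-labelled line. LATS2, a Hippo pathway kinase, was at 13.9 FPKM under GA and 3.46 under DMSO in the NOTCH1-labelled line, and at 5.36 FPKM under GA and 4.81 under DMSO in MCF10A. GSK3B, which phosphorylates SNAI1 for degradation, was at 68.5 FPKM under GA and 20.5 under DMSO in the NOTCH1-labelled line, and at 31.1 FPKM under GA and 21.1 under DMSO in MCF10A. The phosphatase CTDSP1 was at 4.87 FPKM under GA and 8.79 under DMSO in the NOTCH1-labelled line, and at 2.16 FPKM under GA and 9.12 under DMSO in MCF10A. FBXL14, a ubiquitin ligase subunit, was at 11.9 FPKM under GA and 8.73 under DMSO in the NOTCH1-labelled line, and at 2.40 FPKM under GA and 5.57 under DMSO in MCF10A.

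Other transcription factors tied to the transition had 3 of 13 measured genes higher and 1 lower in the NOTCH1-labelled line, beside 18.9% of all genes each way, and 1 of 12 higher, beside 24.5%, and 2 lower, beside 15.2%, in MCF10A. These shares are near the background or below it, and the medians were 0.43 in the NOTCH1-labelled line and −0.50 in MCF10A. ID3, which binds and blocks helix-loop-helix factors, was at 51.1 FPKM under GA and 15.0 under DMSO in the NOTCH1-labelled line, and at 10.8 FPKM under GA and 18.9 under DMSO in MCF10A. Its relative ID1 was at 278 FPKM under GA and 131 under DMSO in the NOTCH1-labelled line, and at 125 FPKM under GA and 227 under DMSO in MCF10A, and its response in the NOTCH1-labelled line is 0.95 once the table's median is removed. SOX4, a transcription factor of the SOX family, was at 10.3 FPKM under GA and 15.1 under DMSO in the NOTCH1-labelled line, and at 4.08 FPKM under GA and 15.0 under DMSO in MCF10A. TWIST2, the paralog of TWIST1, was at 4.36 FPKM under GA and 2.24 under DMSO in the NOTCH1-labelled line, and at 1.64 FPKM under GA and 4.57 under DMSO in MCF10A. TCF12, a partner of TWIST1, was at 109.6 FPKM under GA and 57.6 under DMSO in the NOTCH1-labelled line, and at 60.0 FPKM under GA and 28.4 under DMSO in MCF10A.

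Genes of the TGF-beta pathway, a main inducer of the transition, had 3 of 13 higher and 3 lower in each line, close to the background of 18.9% each way in the NOTCH1-labelled line and of 24.5% higher and 15.2% lower in MCF10A. The medians were 0.50 in the NOTCH1-labelled line and −0.29 in MCF10A. SKI, which represses SMAD signalling, was at 5.67 FPKM under GA and 15.8 under DMSO in the NOTCH1-labelled line, and at 1.42 FPKM under GA and 11.6 under DMSO in MCF10A, lower under GA in both. The ligand TGFB3 went opposite ways, at 2.23 FPKM under GA and 5.55 under DMSO in the NOTCH1-labelled line, and at 7.26 FPKM under GA and 1.97 under DMSO in MCF10A. The ligand TGFB1 was at 5.66 FPKM under GA and 2.07 under DMSO in the NOTCH1-labelled line, and at 3.65 FPKM under GA and 6.05 under DMSO in MCF10A. The receptor TGFBR1 was at 8.15 FPKM under GA and 14.2 under DMSO in the NOTCH1-labelled line, and at 4.65 FPKM under GA and 10.6 under DMSO in MCF10A.

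Regulators that maintain epithelial identity differed between lines in the direction of CDH1. Of 18 measured in the NOTCH1-labelled line, 6 were higher by 2-fold or more and 2 lower, beside 18.9% of all genes each way, with a median response of 0.67. Of 18 in MCF10A, 2 were higher, beside 24.5%, and 9 lower, beside 15.2%, with a median of −0.95. With the table's median removed 8 were lower in MCF10A, and with a pseudocount of 1 FPKM 6 were. The response was higher in the NOTCH1-labelled line by 1 or more for 11 of 17 of them, beside 21.5% of all genes, and lower for 1, beside 22.7%, which was not tested. It was also higher for 7 of 13 TGF-beta genes, 6 of 12 other transcription factors and 8 of 18 SNAI stability genes, and lower for 2, 2 and 1. For corepressors 4 of 13 were higher and 0 lower, and for mesenchymal genes 6 of 27 and 7. For adhesion partners 1 of 8 was higher and 2 lower, and for other cadherins 0 of 10 and 6. EHF, an epithelial ETS factor, was lower in both, at 29.2 FPKM under GA and 129 under DMSO in the NOTCH1-labelled line, and at 2.36 FPKM under GA and 105 under DMSO in MCF10A. GRHL2, an activator of CDH1, was at 1.79 FPKM under GA and 8.18 under DMSO in the NOTCH1-labelled line, and at 8.18 FPKM under GA and 6.88 under DMSO in MCF10A. The splicing regulator ESRP1 was at 54.5 FPKM under GA and 17.2 under DMSO in the NOTCH1-labelled line, and at 56.6 FPKM under GA and 56.5 under DMSO in MCF10A. KLF5, a Krüppel-like factor, was at 113 FPKM under GA and 72.8 under DMSO in the NOTCH1-labelled line, and at 36.6 FPKM under GA and 131 under DMSO in MCF10A. GRHL1, a relative of GRHL2, was at 10.0 FPKM under GA and 15.0 under DMSO in the NOTCH1-labelled line, and at 3.79 FPKM under GA and 12.8 under DMSO in MCF10A. OVOL2, counted as lower in MCF10A, was at 4.66 FPKM under GA and 9.90 under DMSO on its own row there. A row joining it with SNX5 was at 241 FPKM under GA and 118 under DMSO in MCF10A. In the NOTCH1-labelled line only the joined row was listed, at 261 FPKM under GA and 101 under DMSO. The genes of a joined row cannot be told apart.

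**Figure D4:**
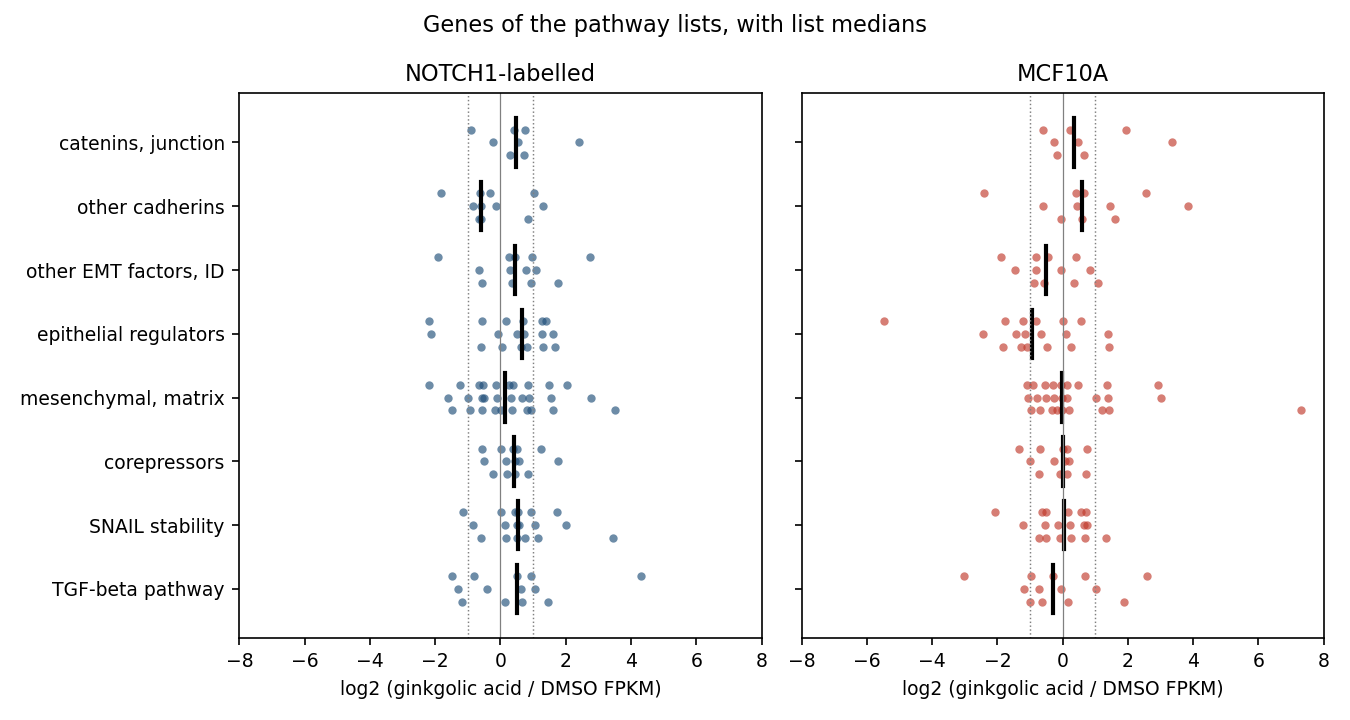
Log2 ratio of GA over DMSO for each measured gene of 8 pathway lists (rows), in the NOTCH1-labelled line on the left and MCF10A on the right, with list medians as black bars and 2-fold as dotted lines. The median of the epithelial regulators is 0.67 in the NOTCH1-labelled line and −0.95 in MCF10A.

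Among 104 genes of the members and lists with 1 FPKM or more in all 4 groups, those nearest to CDH1 in their pair of responses were TP63 at a distance of 0.048, CDH3 at 0.15 and GRHL3 at 0.25. TP63, a basal regulator, had responses of −0.076 in the NOTCH1-labelled line and −1.27 in MCF10A. Among the genes nearest to VIM were TAGLN at 0.74 and FN1 at 1.02. The likeness rests on 2 ratios per gene and has no error.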

How the data were processed

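RNA from 8 samples was extracted with RNeasy and made into ScriptSeq Complete Gold libraries, per the labels' protocols. The submitters' processing notes name the tools TopHat2 (2.0.8b), Bowtie2 (2.1.0), Cufflinks (2.1.1), Cuffdiff (2.1.1) and the build GRCh37, or hg19. Annotation, strand use and how replicates were merged: not given in the sources used here. For each of the 2 lines the authors deposited a table of FPKM values, per the file headers, with 1 value per gene and group. As the design foresaw for such tables, a 2-fold size rule was used and no test.

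Unnamed rows (5455 in the NOTCH1-labelled table, 15977 in that of MCF10A), rows joining several genes (1570 and 1575), rows outside the named chromosomes, and small RNAs or loci under 200 bases were left out, and rows of 1 symbol were summed. Ratios have no pseudocount. Loci are on hg19, with starts made 1-based, and strands, antisense genes and small RNAs come from GENCODE release 29, by symbol. The relative number of fragments is the inverse of the most frequent ratio of GA to DMSO FPKM (1.691 in 167 genes, NOTCH1-labelled; 0.623 in 166 genes, MCF10A; tolerance 0.001). All 10 members are named, and of each of 8 lists up to 3 genes per line with the largest ratios of 2-fold or more and 1 FPKM or more in both groups. Members, lists and rules were chosen with earlier results of these data known. A gene that the naming rule selects is not reported here. Cleaning, ratios and counts were checked on a simulated table. Python 3.11.15, numpy 2.4.6, pandas 2.3.3 and matplotlib 3.10.9 were used.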

Additional observations from a re-analysis of the deposited data

Results flagged for a closer look

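Among the members and the list genes named by rule, the responses of ZEB1, SPARC and TGFB3 were on opposite sides of 0 in the lines and 2-fold or more in each. Each rests on 1 value per group, and the difference was not tested. Other list genes also met these conditions, each below 1 FPKM in at least 1 group. Among them, in the NOTCH1-labelled line and MCF10A, were OVOL1 (1.62 and −2.46), COL6A3 (−1.60 and 3.01), FBN1 (−1.24 and 1.03) and BMP7 (−1.18 and 1.02). For ZEB1, the NOTCH1-labelled minus the MCF10A response was 3.80, and its value under GA in MCF10A, 0.780 FPKM, is below 1 FPKM; its response in the NOTCH1-labelled line is 0.99 once the table's median is removed. For SPARC the difference was 4.60, and its response in MCF10A is −0.99, short of 2-fold, once the table's median is removed. For TGFB3 it was −3.19. All TGFB3 values but that under GA in MCF10A were below the highest endothelial or leukocyte marker of their group. The same held for all SPARC values but that under GA in the NOTCH1-labelled line.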

How the results depend on the processing

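The settings were 6 planned ones (no minimum FPKM, a minimum of 5 FPKM, pseudocounts of 1 and 0.1 FPKM, each table's median removed, and the highest row per symbol) and 1 chosen after seeing the data, the median of genes above 10 FPKM removed. In the NOTCH1-labelled line 3 or 4 members were higher by 2-fold or more and 0 lower in all 7. The count of 3 lacks ZEB1, whose response was 0.95 with a pseudocount of 1 FPKM, 0.99 with the table's median removed and 0.87 with the second median removed. In MCF10A 3 members were higher in all 7 and 3 lower in all but the minimum of 5 FPKM, which gave 2 because ZEB1 was not measured. With a pseudocount of 1 FPKM the ZEB1 response in MCF10A was −1.74. The median difference between lines ran from 0.30 with the second median removed to 0.98 with a minimum of 5 FPKM. With the table's median removed, the response of CDH3 in the NOTCH1-labelled line was −0.040 and that of ZEB2 in MCF10A 0.10. With the second median removed these were −0.15 and 0.14, CDH2 in the NOTCH1-labelled line was −0.020 and the FN1 difference −0.053. The median of mesenchymal genes in MCF10A was 0.12 without a minimum, 0.092 with the table's median removed and 0.13 with the second; in the NOTCH1-labelled line it was −0.11 with the second. With a minimum of 5 FPKM the medians in MCF10A were −0.087 for other cadherins and −0.016 for corepressors. The cause of these changes was not tested. No paired analysis was possible because the tables hold 1 value per group and none per sample, so no replicate could be left out either.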

Other observations

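The 5 luminal markers did not move together. KRT8, a luminal keratin, was at 328 FPKM under GA and 108 under DMSO in the NOTCH1-labelled line, and at 180 FPKM under GA and 108 under DMSO in MCF10A. Its partner KRT18 was at 238 FPKM under GA and 78.1 under DMSO in the NOTCH1-labelled line, and at 167 FPKM under GA and 76.0 under DMSO in MCF10A. EPCAM, an epithelial adhesion molecule, was at 223 FPKM under GA and 91.6 under DMSO in the NOTCH1-labelled line, and at 110 FPKM under GA and 41.2 under DMSO in MCF10A. These 3 were higher under GA in both lines, KRT8 in MCF10A by less than 2-fold. The luminal factor GATA3 was lower under GA in both, at 2.53 FPKM under GA and 3.82 under DMSO in the NOTCH1-labelled line, and at 1.17 FPKM under GA and 2.76 under DMSO in MCF10A. The oestrogen receptor ESR1 was at 1.24 FPKM under GA and 2.71 under DMSO in the NOTCH1-labelled line, and at 1.67 FPKM under GA and 1.19 under DMSO in MCF10A. All values of GATA3 and ESR1 were below the highest endothelial or leukocyte marker of their group. Those of KRT8, KRT18 and EPCAM were all above it, so the markers that departed were those at low levels.

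Of the basal markers, 0 of 5 were past 2-fold in the NOTCH1-labelled line, beside 18.9% of all genes each way. In MCF10A 3 of 4 with their own row were lower by 2-fold or more, beside 15.2%, and 0 higher, beside 24.5%. KRT5, a basal keratin, was at 614 FPKM under GA and 990.2 under DMSO in the NOTCH1-labelled line, and in MCF10A its row is joined with KRT6A, at 904 FPKM under GA and 3202 under DMSO. Its partner KRT14 was at 24.0 FPKM under GA and 16.2 under DMSO in the NOTCH1-labelled line, and at 5.68 FPKM under GA and 21.8 under DMSO in MCF10A. The factor TP63 was at 14.2 FPKM under GA and 15.0 under DMSO in the NOTCH1-labelled line, and at 8.53 FPKM under GA and 20.5 under DMSO in MCF10A. ITGA6, a laminin-binding integrin chain, was at 109 FPKM under GA and 95.3 under DMSO in the NOTCH1-labelled line, and at 52.5 FPKM under GA and 109.8 under DMSO in MCF10A. The ITGA6 response in MCF10A was −1.07, or −0.96, short of 2-fold, once the table's median is removed. The growth factor receptor EGFR was at 21.4 FPKM under GA and 18.1 under DMSO in the NOTCH1-labelled line, and at 22.2 FPKM under GA and 34.9 under DMSO in MCF10A.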
